A study of Mus musculus with 8 samples.

Results

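The smooth muscle contractile genes comprised 10 members: Acta2, Actg2, Myh11, Myl9, Tagln, Cnn1, Smtn, Lmod1, Des and Myocd. They were read by every probe set that carried one of these symbols as its single gene, which gave 15 of the 45101 probe sets on the array and 10 of the 18194 genes with such a probe set. The group was selected on the E18.5 over E14.5 changes measured on these same arrays, compared between control and mutant pools. Those changes and their difference between genotypes are therefore given below as a description, with no test. The samples were whole embryonic mouse kidneys in 4 pools. The E18.5 mutant pool came from 9 embryos and the E18.5 control pool from 14. At E14.5, 17 mutant and 23 control embryos were pooled. Mutant kidneys were Lim1flox/lacZ; Rarb2Cretg/+ and control kidneys Lim1flox/+; Rarb2Cretg/+, on a mixed background of 129/SvEv, C57BL/6J and SJL/J, with both sexes together. The controls thus also carried the Cre transgene and 1 floxed allele. Rarb2-Cre acts in the metanephric mesenchyme, which forms the nephrons. The ureteric bud is not derived from it, but in mutants the bud carried the lacZ null allele that controls lacked.

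Each pool was 1 RNA, and 2 targets were made from it and hybridised to 1 array each. The paired values below are therefore technical duplicates, each condition had 1 biological sample, and no p-value was computed between 2 pools. Values are deposited signal intensities in arbitrary units, with array medians of 225 to 243. The level of one gene was not compared with that of another, and sums over a list are compared only between arrays. Between duplicates the log2 signals correlated with r = 0.980 in the E18.5 mutant pool and with r of 0.985 to 0.990 in the other pools, over all probe sets of an array. The E18.5 mutant arrays lay farthest apart, with a median fold of 1.16 between them, against 1.08 to 1.11 elsewhere. Lhx1 (Lim1) itself read 296 and 333 in E18.5 mutant kidneys, against 370 and 352 in E18.5 control kidneys, by its brightest probe set. At E14.5 the same probe set read 563 and 554 in mutant kidneys, against 449 and 517 in control kidneys, and its other probe set went the opposite way at each stage. Where these probes lie relative to the deleted part is not known here, and the gene is also expressed in the bud, so Lhx1 did not check the labels. Genes of the mature nephron did separate the E18.5 pools. Slc34a1, the sodium-phosphate cotransporter of the proximal tubule, averaged 79.5 in E18.5 mutant kidneys, a signal too low to tell expression from background, and 5044 in E18.5 control kidneys.

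Smooth muscle contracts through actin and myosin isoforms and filament-binding proteins that few other cells make, and these proteins are its usual markers. Serum response factor, together with its cofactor myocardin, switches on many of these genes through a DNA element called the CArG box. In the kidney, smooth muscle surrounds arteries and arterioles, and it wraps the pelvis and ureter, where peristalsis moves urine away. These layers develop from stromal and periureteric mesenchyme, while mesangial cells and pericytes can express part of the same set.

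RefSeq promoter windows on build GRCm38.p6, from 250 bases before to 50 after a start site, were at hand for 6 of the 10 members. These were Acta2, Myl9, Lmod1, Smtn, Cnn1 and Des. Stretches of 4 of them are printed 5′ to 3′ because they carry the comparison of the motif with the arrays. Acta2 and Myl9 had the clearest stage change of the 6, Smtn differed most between genotypes, and Lmod1 holds the motif but stayed at a low signal. Capitals mark a CArG box with at most 1 mismatch. Only bases outside the annotated extent of the gene are shown. The exception is Acta2, whose annotated extent reaches 212 bases beyond the start used by the table, so that 30 bases around each match are given.
Acta2 first match, chr19:34255438-34255467, minus strand: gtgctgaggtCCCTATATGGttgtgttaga
Acta2 second match, chr19:34255388-34255417, minus strand: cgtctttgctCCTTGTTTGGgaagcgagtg
Myl9, chr2:156775214-156775407, plus strand: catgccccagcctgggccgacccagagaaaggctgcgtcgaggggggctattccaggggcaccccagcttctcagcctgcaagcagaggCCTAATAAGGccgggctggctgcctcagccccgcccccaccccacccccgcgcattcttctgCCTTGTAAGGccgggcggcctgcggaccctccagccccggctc
Lmod1, chr1:135324563-135324812, plus strand: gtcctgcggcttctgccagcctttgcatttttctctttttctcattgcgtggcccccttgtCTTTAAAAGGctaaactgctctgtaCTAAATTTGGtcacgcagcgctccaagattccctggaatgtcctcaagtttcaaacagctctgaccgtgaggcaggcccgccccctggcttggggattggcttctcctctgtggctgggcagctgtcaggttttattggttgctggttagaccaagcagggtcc
Smtn, chr11:3539293-3539542, minus strand: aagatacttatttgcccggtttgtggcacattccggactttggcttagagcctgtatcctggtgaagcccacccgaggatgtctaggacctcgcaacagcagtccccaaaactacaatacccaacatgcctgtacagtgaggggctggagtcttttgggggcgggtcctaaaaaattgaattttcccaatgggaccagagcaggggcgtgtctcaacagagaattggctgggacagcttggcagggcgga
The CArG box reads the same on both strands, so a search of one strand covers both. An exact match was found in 1 of the 6 windows, that of Myl9, at CCTAATAAGG, which begins 161 bases upstream of the start. Over all 32851 windows of the same length in the table, 535 held an exact match, or 1.63%. With 1 mismatch allowed, 3 of the 6 member windows and 21.1% of all windows held at least 1. The Acta2 matches were CCCTATATGG, which begins 84 bases upstream, and CCTTGTTTGG, 34 bases upstream. Myl9 had CCTTGTAAGG as well, 99 bases upstream, and Lmod1 had CTTTAAAAGG and CTAAATTTGG, 189 and 164 bases upstream. In the windows of Smtn, Cnn1 and Des these letters were not found. A match is a description of the sequence and shows no binding.

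A gene was taken as higher or lower when the ratio of pool means of its brightest probe set met criteria of size. It had to be at least 2 and larger than the fold between duplicates in either pool, and the product of the higher mean and the ratio had to be over 100. On both arrays of the higher pool the signal also had to be at or past the 40th percentile of that array, a minimum of 177 to 193. The range given after a ratio is that over the 4 pairings of 1 array from each pool. Of the 10 members, 9 reached that minimum on both arrays of at least 1 pool, and 6 did so on all 8 arrays. Lmod1 reached it on none.

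In mutant kidneys 4 of the 10 members were higher at E18.5 than at E14.5 and 0 were lower, where 0.896% of all genes were higher and 0.742% lower. The 4 were Acta2, Myh11, Myl9 and Tagln. All 4 were also higher in control kidneys, and 0.676% of all genes were higher in both genotypes. In control kidneys 5 members were higher, the same 4 and Smtn, and 1 was lower, Actg2, where 3.57% of all genes were higher and 1.21% lower. Because the group was proposed from this contrast, nothing is read from these shares. The remaining members, Cnn1, Lmod1, Des and Myocd, met the criteria in neither genotype. In whole kidneys a change in the number of smooth muscle cells and a change in RNA per cell cannot be told apart.

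**Figure D1:**
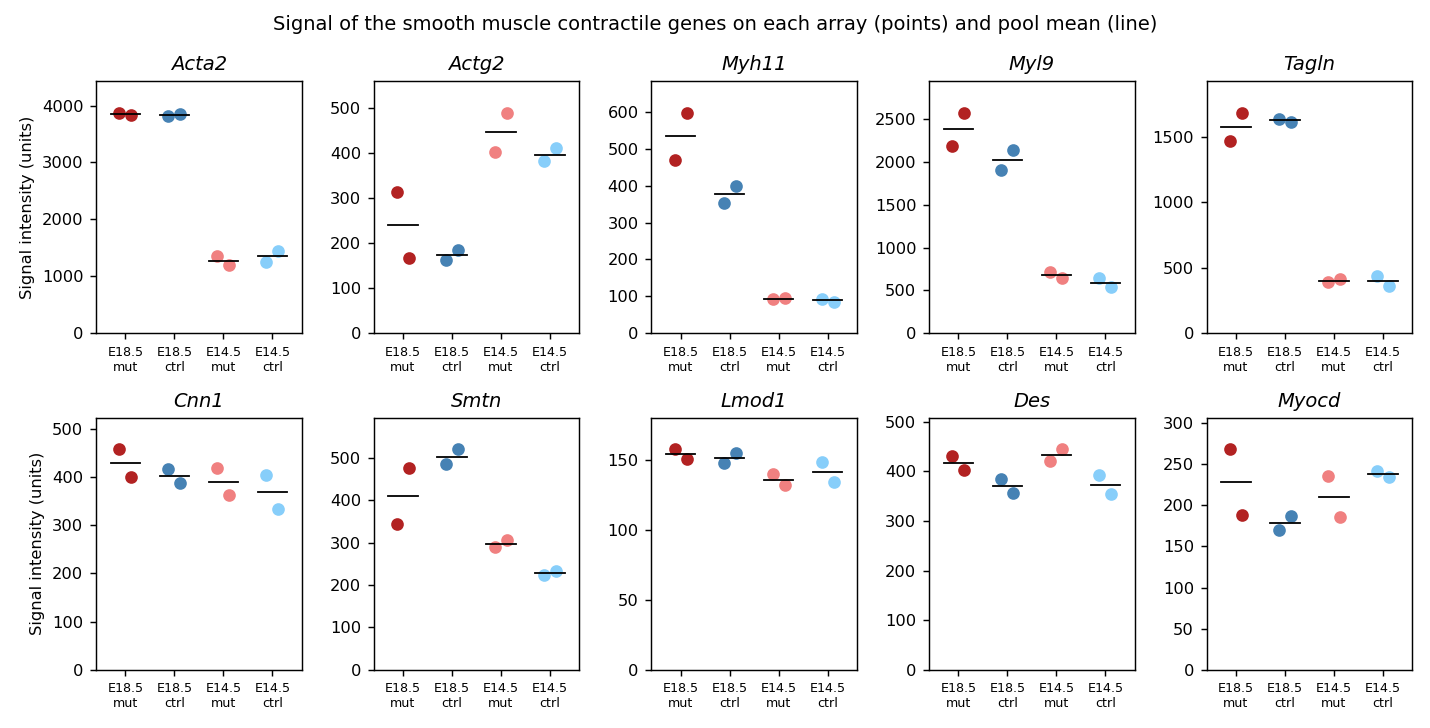
Signal intensity (units) of the 10 members, each by its brightest probe set, on the arrays of the E18.5 mutant, E18.5 control, E14.5 mutant and E14.5 control pools. Points are single arrays and lines are pool means. Acta2, Myh11, Myl9 and Tagln stood apart between stages in both genotypes, with little distance between mutant and control points of a stage for Acta2 and Tagln.

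Of the actins, Acta2 encodes the vascular smooth muscle alpha-actin, the most widely used marker of the lineage (chromosome 19, 34240336 to 34255585). Its brightest probe set read 3878 and 3834 in E18.5 mutant kidneys, against 1361 and 1189.6 in E14.5 mutant kidneys. The control values were 3809 and 3845 at E18.5, against 1252 and 1443 at E14.5. All 4 E18.5 arrays thus lay above all 4 E14.5 arrays, and mutant and control arrays overlapped at each stage. The ratio of the E18.5 to the E14.5 mean was 3.02 (2.82 to 3.26) in mutant and 2.84 (2.64 to 3.07) in control kidneys. The array maker marks this probe set as shared by several transcripts, so part of its signal may come from related actins. A pair of other Acta2 probe sets stayed below the minimum signal on every array, between 45.8 and 126, and their stage ratios were 0.891 to 1.12 over both genotypes.

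Actg2, the gamma-actin of visceral smooth muscle such as gut and bladder (chromosome 6, 83512909 to 83536251), went the other way. It read 313 and 167 in E18.5 mutant kidneys, against 402 and 490.0 in E14.5 mutant kidneys. Control kidneys gave 162 and 184 at E18.5, against 381 and 411 at E14.5. Every E18.5 array lay below every E14.5 array, but the E18.5 mutant duplicates were 1.88-fold apart. Neither E18.5 pool reached the minimum signal on both arrays, so the size of the ratio depends on the background. The ratio was 0.437 (0.394 to 0.483) in control kidneys, which met the criteria for lower, and 0.538 (0.340 to 0.779) in mutant kidneys, which did not. Without E18.5 mutant array 1, or without E14.5 mutant array 1, Actg2 met them in mutant kidneys too. Among other actins the E18.5 mutant duplicates lay close for Actg1, at 10327 and 9438, and for Acta2, at 3878 and 3834. Those of the non-muscle actin Actb were split in the same direction as Actg2, at 12793 and 5718. The part of this split in the Actg2 values was not tested.

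Among the myosin genes, Myh11 encodes the smooth muscle myosin heavy chain, a motor found in few other cells (chromosome 16, 14194527 to 14292188). It read 471 and 599 in E18.5 mutant kidneys, against 92.0 and 95.4 in E14.5 mutant kidneys. In control kidneys it read 354 and 400.5 at E18.5, against 93.3 and 85.0 at E14.5. Both E14.5 pools lay under the minimum signal, so the size of the ratio depends on the background. It was 5.71 (4.93 to 6.51) in mutant and 4.23 (3.79 to 4.71) in control kidneys. A second Myh11 probe set, which reached the minimum on 3 arrays, read 174 and 145 in E18.5 mutant kidneys and 180 and 218 in E14.5 mutant kidneys. Its ratio was 0.800 (0.664 to 0.965) in mutant and 0.874 (0.746 to 1.03) in control kidneys, so the probe sets of Myh11 disagreed.

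Myl9 encodes the regulatory light chain whose phosphorylation starts contraction (chromosome 2, 156775408 to 156781657). It read 2192 and 2581 in E18.5 mutant kidneys, against 709 and 640.2 in E14.5 mutant kidneys. Its control signals were 1906 and 2140.2 at E18.5, against 639 and 534 at E14.5. No E18.5 array came near an E14.5 array, and the mutant pool was the higher at both stages on every array. The stage ratios were 3.54 (3.09 to 4.03) in mutant and 3.45 (2.98 to 4.01) in control kidneys. Of the 6 members with a promoter window, Myl9 was the one with an exact CArG box.

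The actin-binding members split. Tagln encodes transgelin, or SM22 alpha, an early calponin-family marker of smooth muscle (chromosome 9, 45929628 to 45936058). It read 1469.6 and 1688 in E18.5 mutant kidneys, against 392 and 411 in E14.5 mutant kidneys. In control kidneys it read 1638 and 1618 at E18.5, against 438 and 363 at E14.5. The stages did not overlap, while mutant and control arrays overlapped at each stage. The ratios were 3.93 (3.58 to 4.31) in mutant and 4.07 (3.69 to 4.52) in control kidneys. Cnn1, calponin, which restrains the actomyosin ATPase and marks mature smooth muscle (chromosome 9, 22099221 to 22109221), lacked such a change. It read 458 and 399.8 in E18.5 mutant kidneys, against 419.7 and 362 in E14.5 mutant kidneys, and the stages overlapped. The ratio was 1.10 (0.952 to 1.26) in mutant and 1.09 (0.963 to 1.25) in control kidneys. Cnn1 reached the minimum signal on all 8 arrays, with 418 and 389 in E18.5 control kidneys and 404 and 333 in E14.5 control kidneys. That minimum does not show expression, since Ckm and Myod1 of skeletal muscle, which the kidney lacks, also reached it on all 8 arrays. How far background sets the ratios of Cnn1, and of Des and Myocd below, was not tested.

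Smtn encodes smoothelin, a protein of contractile filaments in differentiated smooth muscle (chromosome 11, 3517522 to 3539292). It read 345 and 475 in E18.5 mutant kidneys, against 289 and 305 in E14.5 mutant kidneys. Smtn in control kidneys read 486 and 520.04 at E18.5, against 223 and 233 at E14.5. Both stages stood apart in each genotype, with the control pools outermost on either side. The ratio was 1.38 (1.13 to 1.65) in mutant and 2.20 (2.08 to 2.33) in control kidneys, where it met the criteria. Lmod1, a leiomodin that nucleates actin filaments (chromosome 1, 135324813 to 135368065), read between 132 and 158 over all 8 arrays. Its ratios were 1.14 (1.08 to 1.20) in mutant and 1.07 (0.999 to 1.15) in control kidneys, at signals too low to tell expression from background.

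Des encodes desmin, the muscle intermediate filament, which mesangial cells and pericytes also carry (chromosome 1, 75360292 to 75368579). It read 431 and 402 in E18.5 mutant kidneys, against 420.4 and 445 in E14.5 mutant kidneys. In control kidneys it read 384 and 356 at E18.5, against 392 and 354 at E14.5. The stages overlapped in both genotypes, with ratios of 0.962 (0.904 to 1.02) in mutant and 0.991 (0.908 to 1.08) in control kidneys. A second Des probe set gave 0.903 (0.748 to 1.06) in mutant and 0.720 (0.615 to 0.851) in control kidneys.

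Myocd encodes myocardin, the cofactor through which serum response factor drives this gene set (chromosome 11, 65173608 to 65269989). It read 268 and 188 in E18.5 mutant kidneys, against 235 and 185 in E14.5 mutant kidneys. The control pools gave 170.3 and 187 at E18.5, against 242 and 235 at E14.5. The stages overlapped in mutants and not in controls, and the ratio was 1.08 (0.798 to 1.45) in mutant and 0.750 (0.704 to 0.798) in control kidneys. By its second probe set Myocd read 192 and 99.8 in E18.5 mutant kidneys, against 266 and 270.4 in E14.5 mutant kidneys. That probe set had ratios of 0.545 (0.369 to 0.724) in mutant and 0.504 (0.475 to 0.534) in control kidneys, neither past 2-fold. Thus no probe set of Myocd was higher at E18.5 in control kidneys, and neither met the criteria in either direction. Srf, its partner, which also met no criteria, had ratios of 0.924 (0.811 to 1.05) in mutant and 0.886 (0.812 to 0.970) in control kidneys.

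**Figure D2:**
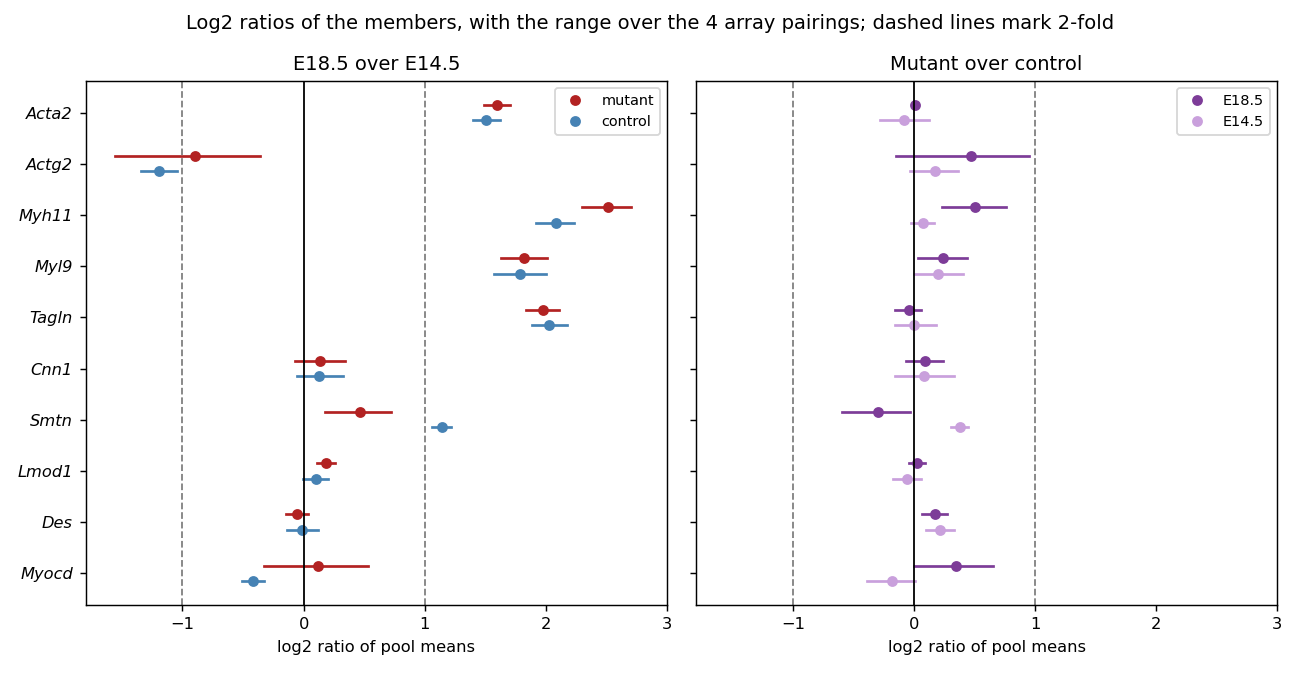
Log2 ratio of E18.5 to E14.5 signal in mutant and control pools (left) and of mutant over control at E18.5 and E14.5 (right) for each member by its brightest probe set. Points are ratios of pool means, bars the range over the 4 array pairings and dashed lines 2-fold. On the left Acta2, Myh11, Myl9 and Tagln lie past 2-fold in both genotypes, and on the right no member does.

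Over the 10 members the median log2 stage ratio was 0.33 (0.22 to 0.44) in mutant and 0.63 (0.58 to 0.69) in control kidneys, against 0.02 and -0.01 over all genes. The medians hide a split, since ratios ran between -0.89 and 2.51 on the log2 scale in mutant and between -1.19 and 2.08 in control kidneys. With both arrays of a stage beyond both of the other, 6 members were higher and 1 lower in mutant kidneys, where 27.8% of all genes were higher and 24.1% lower in this sense. In control kidneys 5 were higher and 2 lower, against 31.9% and 30.4% of all genes.

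The comparison of genotypes asked whether the set changed in kidneys that form no nephrons. The study describes the mutant kidneys as small and without nephrons, so their mix of cells differs from that of controls. Here too a change in the number of smooth muscle cells and a change in RNA per cell cannot be told apart. At E18.5, 0 of the 10 members met the criteria in mutant over control kidneys, where 0.0989% of all genes were higher and 1.75% lower. The count at E14.5 was also 0, where 0% of all genes were higher and 0.0715% lower. A count of 0 of 10 is near these shares at both stages. The median log2 ratio of the members was 0.13 (0.02 to 0.15) at E18.5 and 0.08 (-0.04 to 0.17) at E14.5, against 0.03 and 0.01 over all genes. The E18.5 means of Acta2 were 3856 in mutant and 3827 in control kidneys, a ratio of 1.01 (0.997 to 1.02). For Tagln the E18.5 ratio was 0.970 (0.897 to 1.04). At that stage all 7 measured genes of the proximal tubule and thick ascending limb met the criteria for lower in the mutant. Most of them, such as Slc34a1, Umod and Cubn, are among the top genes that the study ranked by this contrast on these same arrays. Their count is therefore no independent contrast to that of the members.

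By its brightest probe set Myh11 had a mutant over control ratio of 1.42 (1.18 to 1.69) at E18.5, with both mutant arrays above both control arrays. At E14.5, under the minimum signal, that ratio was 1.05 (0.986 to 1.12). The second Myh11 probe set disagreed at E18.5, with a ratio of 0.886 (0.756 to 1.03). Actg2 had a ratio of 1.38 (0.903 to 1.93) at E18.5, where array 1 of the mutant pool lay above and array 2 between the control arrays. Neither pool reached the minimum signal on both arrays there. The signal of Myl9 was higher on every mutant array at both stages, with ratios of 1.18 (1.02 to 1.35) at E18.5 and 1.15 (1.00 to 1.33) at E14.5. For Des this held by its brightest probe set, with 1.13 (1.05 to 1.21) at E18.5 and 1.16 (1.07 to 1.26) at E14.5, while its second probe set gave 1.11 (0.882 to 1.36) at E18.5 and 0.883 (0.785 to 1.00) at E14.5. In all, by brightest probe sets, 4 members at E18.5 and 3 at E14.5 had both mutant arrays above both control arrays, against 22.8% and 21.8% of all genes. Both mutant arrays lay below both control arrays for 1 member at E18.5 and 0 at E14.5, against 21.1% and 15.8% of all genes. A higher mutant signal was not particular to the members. Of 9 measured genes of interstitial fibroblasts and elastic matrix, 7 at E18.5 and 9 at E14.5 had both mutant arrays above both control arrays. For 0 of them both lay below at either stage, and the median log2 ratios were 0.27 at E18.5 and 0.33 at E14.5.

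Smtn was the 1 member with the mutant arrays on opposite sides of the controls at the 2 stages. At E18.5 the mutant arrays, at 345 and 475, lay below the control arrays, at 486 and 520.04, a ratio of 0.815 (0.663 to 0.978). At E14.5 the mutant arrays, at 289 and 305, lay above the control arrays, at 223 and 233, a ratio of 1.30 (1.24 to 1.36). Such a separation in opposite directions occurred in 8.57% of all genes.

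The stage change in mutant kidneys minus that in control kidneys was taken on the log2 scale, with the range over the 16 choices of 1 array from each pool. It reached 2-fold for 0 of the 10 members, where 0.104% of all genes passed upwards and 1.84% downwards. The choice of the group rested on this comparison too, so nothing is read from these shares. The difference also equals the log2 mutant over control ratio at E18.5 minus that at E14.5, so it is not independent of those ratios. The median over the members was 0.06 (-0.08 to 0.23), against 0.01 over all genes. Acta2, Tagln and Myl9 stood at 0.09 (-0.13 to 0.30), -0.05 (-0.34 to 0.22) and 0.04 (-0.37 to 0.44). Each of these ranges spans 0, and with 1 pool per condition they do not show that the genotypes changed alike. The difference for Smtn was -0.67 (-1.04 to -0.34), below 0 in all 16 choices, and it was the 1 member past 1.5-fold, as were 5.17% of all genes downwards. For Myh11 it was 0.43 (0.07 to 0.78) by the brightest probe set, above 0 in all 16 choices, and -0.13 (-0.63 to 0.37) by the second. The difference for Myocd was 0.53 (-0.00 to 1.04), over duplicates of the E18.5 mutant pool that read 268 and 188.

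**Figure D3:**
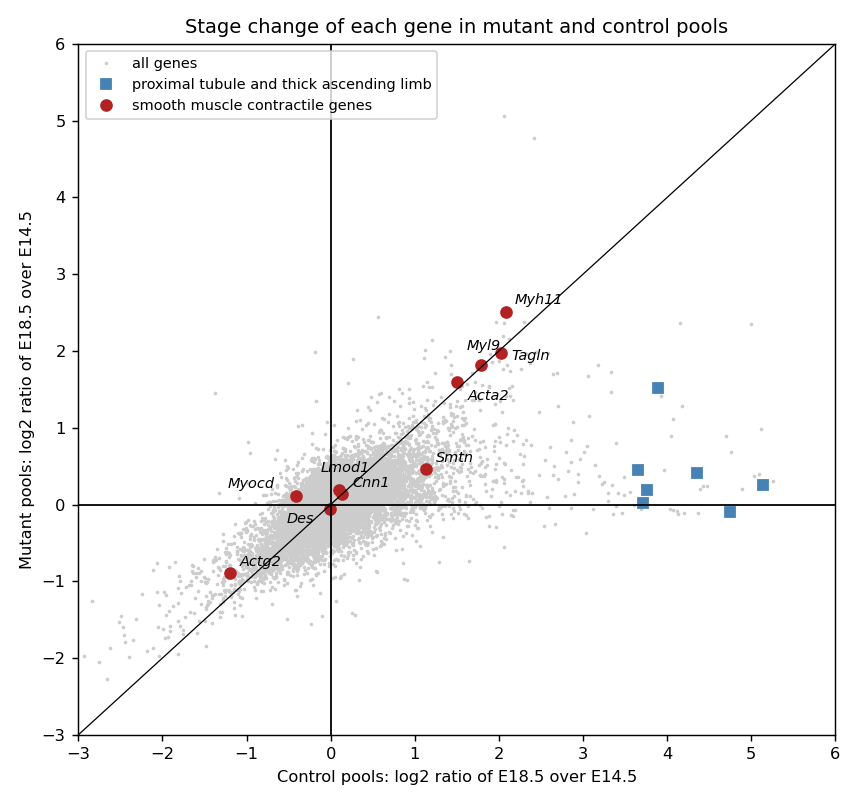
Log2 ratio of E18.5 to E14.5 signal for each gene, read by its brightest probe set, with control pools on the x axis and mutant pools on the y axis. The diagonal marks equal stage change. Acta2, Myl9 and Tagln lie close to it, Myh11 above and Smtn below, while the 7 genes of the proximal tubule and thick ascending limb lie far to the right. All genes are shown except 3 outside the plotted range.

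A genotype effect common to both stages was tested with limma on the 4 pools, with terms for genotype and stage. This left 1 residual degree of freedom, and a genotype effect that differed between the stages, as for Smtn, counted as residual. Among the 27061 probe sets whose mean signal was at the 40th percentile or higher, 0 were higher and 0 lower in the mutant at an adjusted p under 0.05, and 1120 had an unadjusted p under 0.05. Of the 15 member probe sets 11 entered the fit, of which 0 passed and 0 had an unadjusted p under 0.05. The lowest p of a member was that of Actg2, with a log2 effect of 0.28 (SE 0.11, limma adjusted p = 0.9998). For Acta2 the effect was -0.03 (SE 0.13) and for Tagln -0.02 (SE 0.13). A p that misses the threshold does not show that the genotypes did not differ. No probe set passed, not even that of Slc34a1, so this fit cannot decide whether the members differed.

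Other genes of the smooth muscle and serum response factor program were read in the same way. Of 27 measured, 2 were higher and 1 lower at E18.5 in mutant kidneys, beside 0.896% and 0.742% of all genes. In control kidneys 4 were higher and 1 lower, beside 3.57% and 1.21% of all genes. The median log2 ratios were 0.21 in mutant and 0.31 in control kidneys. Mylk, the kinase that phosphorylates Myl9, averaged 2885 in E18.5 and 998 in E14.5 mutant kidneys, and 2094 in E18.5 and 930.3 in E14.5 control kidneys. Its stage ratios were 2.89 (2.68 to 3.12) in mutant and 2.25 (2.03 to 2.52) in control kidneys. Csrp1, a LIM protein of smooth muscle, was higher at 2.13 (1.76 to 2.55) in mutant and 2.59 (2.36 to 2.84) in control kidneys. Rock1, a kinase that favours contraction, was lower in both, at 0.440 (0.400 to 0.483) in mutant and 0.438 (0.410 to 0.470) in control kidneys. Between genotypes at E18.5, 0 of the 27 were higher and 1 lower in the mutant, beside 0.0989% and 1.75% of all genes. It was Fhl1, another LIM protein, which averaged 707 in mutant and 1619 in control kidneys, a ratio of 0.437 (0.412 to 0.462). At a ratio of 1.5, 0 were higher and 2 lower, beside 0.704% and 4.11% of all genes. The filamin gene Flna had stage ratios of 1.75 (1.60 to 1.92) in mutant and 1.73 (1.65 to 1.81) in control kidneys, short of 2-fold.

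Non-muscle counterparts of the contractile proteins were also read. Of 13 measured, 0 were higher at E18.5 in either genotype, 1 was lower in mutant kidneys and 2 in control kidneys, and the medians were -0.04 and -0.02. Over all genes 0.896% were higher and 0.742% lower in mutant kidneys, and 3.57% and 1.21% in control kidneys. A count of 0 higher in 13 is near these shares. Myh9, a non-muscle myosin heavy chain, was lower at 0.477 (0.408 to 0.552) in mutant and 0.304 (0.293 to 0.315) in control kidneys. This was opposite to the brightest probe set of Myh11 but not to its second, at 0.800 in mutant and 0.874 in control kidneys. The cytoplasmic actin Actg1 had ratios of 0.894 (0.839 to 0.951) in mutant and 0.949 (0.907 to 0.992) in control kidneys. Regulators of renal and ureteric smooth muscle, such as the Hedgehog receptor Ptch1 and its partner Smo, met no criteria in any comparison. This count of 0 of 11 is near the shares of all genes in the same comparisons. Ptch1 had stage ratios of 0.714 (0.631 to 0.809) in mutant and 1.05 (0.946 to 1.19) in control kidneys, and Smo had 1.15 (0.949 to 1.36) and 1.26 (1.08 to 1.44).

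Markers of neighbouring cell types were compared between the stages by the same criteria, which 0.896% of all genes met for higher in mutant and 3.57% in control kidneys. Of 9 measured genes of interstitial fibroblasts and elastic matrix, 3 were higher at E18.5 in mutant and 2 in control kidneys, with medians of 0.90 and 0.84, and their summed signal was 29487 to 31548 in E18.5 mutant and 15883 to 17530 in E14.5 mutant kidneys. In control kidneys the sum was 24586 to 24623 at E18.5 and 13424 to 13697 at E14.5. Fbln5 and Eln, elastic fibre genes that smooth muscle cells also express, were higher in both genotypes, Fbln5 at 3.42 (2.88 to 3.98) in mutant and 4.80 (4.42 to 5.24) in control kidneys. The ratio of Eln was 2.57 (2.38 to 2.77) in mutant and 3.02 (2.79 to 3.29) in control kidneys. Of 10 vascular mural genes, 0 were higher in mutant and 3 in control kidneys, with medians of 0.31 and 0.63. Their summed signal was 7018 to 7873 in E18.5 mutant and 5528 to 5633 in E14.5 mutant kidneys, and 8066 to 8256 in E18.5 control and 4444 to 5225 in E14.5 control kidneys. Rgs5, a pericyte gene, had stage ratios of 1.38 (1.22 to 1.55) in mutant and 2.29 (2.04 to 2.60) in control kidneys. Kcnj8 and Abcc9, also past 2-fold in control kidneys, lay just short of it in mutant kidneys. Kcnj8 had 1.87 (1.62 to 2.15) in mutant and 2.23 (2.14 to 2.31) in control kidneys. The ratios of Abcc9 were 1.97 (1.73 to 2.22) in mutant and 2.02 (1.69 to 2.49) in control kidneys. Of 8 endothelial genes 1 was higher in each genotype, with medians of 0.22 in mutant and 0.56 in control kidneys. It was Tie1, an endothelial receptor, at 2.48 (2.09 to 2.87) in mutant and 3.87 (3.71 to 4.04) in control kidneys. Tie1 lay under the minimum signal in E14.5 control kidneys, so the size of the control ratio depends on background. Kdr, another endothelial receptor, had 0.880 (0.764 to 1.01) in mutant and 1.03 (0.937 to 1.14) in control kidneys. No marker of these lists was at 0, and their part in the members' change was not tested.

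Genes of skeletal and cardiac muscle, which the kidney lacks, were read as well. Of 19 measured, 0 met the criteria between stages in either genotype, and over all genes these shares were 0.896% higher and 0.742% lower in mutant and 3.57% higher and 1.21% lower in control kidneys. The log2 ratios ran between -0.61 and 0.59 in mutant kidneys, with a median of -0.01, and between -0.63 and 0.55 in control kidneys, with a median of -0.10. With both arrays of a stage beyond both of the other, 6 were higher and 4 lower in mutant kidneys, against 27.8% and 24.1% of all genes. In control kidneys 3 were higher and 6 lower in this sense, against 31.9% and 30.4% of all genes. The summed signal of these 19 genes was 4246 to 4597 in E18.5 mutant, 4357 to 4457 in E14.5 mutant, 4017 to 4187 in E18.5 control and 4203 to 4274 in E14.5 control kidneys. The summed signal of the 10 smooth muscle members was 9983 to 10484 in E18.5 mutant and 4255 to 4461 in E14.5 mutant kidneys, and 9475 to 9795 in E18.5 control and 4125 to 4214 in E14.5 control kidneys. This sum is weighted to bright members, such as Acta2, Myl9 and Tagln, with E18.5 mutant means of 3856, 2387 and 1579. It does not show a change of the whole set, which was also chosen on this contrast. Of 7 urothelial genes, which line the pelvis and ureter that the smooth muscle wraps, 1 was higher in each genotype. It was Upk3a, a uroplakin, with 2.21 (1.94 to 2.54) in mutant and 2.16 (2.03 to 2.30) in control kidneys. The 6 adrenal cortex genes met no criteria in any comparison.

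**Figure D4:**
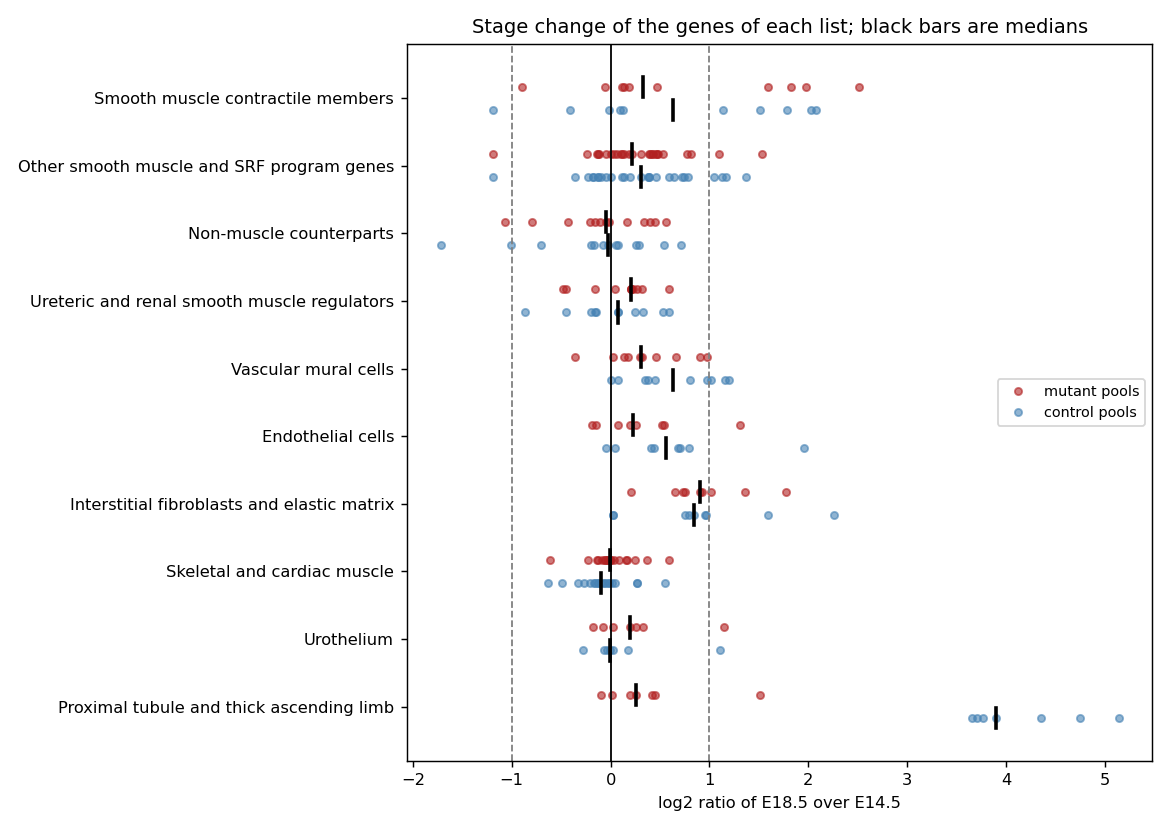
Log2 ratio of E18.5 to E14.5 signal for the genes of 10 lists, each gene a point read by its brightest probe set, mutant pools above control pools in each list. Black bars are list medians and dashed lines 2-fold. The members spread from below -1 to above 2, the skeletal and cardiac list stays between the dashed lines, and the proximal tubule and thick ascending limb list lies past 2-fold for all 7 genes in control pools and for 1 in mutant pools, with sizes that depend on background where signals are low.

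Across the 4 pools, the genes whose centred log2 profile lay nearest the mean profile of the members were Slc44a2, Rbm33, Hsd17b11, Tspan15, Ephb4, Klhl17, Tcp11l2 and Egflam, out of 13906 candidates. Their Euclidean distance to it was 0.06 for Slc44a2 and 0.08 for Egflam. The members themselves lay farther from their own mean, between 0.38 for Smtn and 1.83 for Actg2, so the mean profile stands for no single member and likeness over 4 pools is weak.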

How the data were processed

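Total RNA of pooled whole kidneys was hybridised to 8 arrays of the Affymetrix Mouse Genome 430 2.0 type, 2 per pool. The deposited values are signal intensities, with 1 value for each probe set on an array, that the authors scaled in Microarray Suite 5.0, modelled in dChip 2004 and normalized between arrays on an invariant set of probes. Such scaling assumes that most probes do not change, and dim probe sets have ratios compressed by background. The median intensity that the submitters state after normalization was not found in these columns, whose medians are those given above, and raw probe intensities and present calls were not used here. Probe sets were named through GEO's platform annotation joined to RefSeq gene identifiers. Of 45101 probe sets, 34958 had 1 gene, 932 several and 9211 none, and 34754 matched by identifier.

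Ratios are those of arithmetic means. The criteria of size follow the study's methods, with the 40th percentile in place of present calls. Each gene was read by the probe set with the highest mean over the 8 arrays. The only test was limma 3.58.1 in R 4.3.3 on log2(signal + 1), arrays of a pool averaged first, 4 pools, mean-variance trend, Benjamini-Hochberg adjustment. Its p-values rest on 1 pool per condition. Other steps used Python 3.11.15, numpy 2.4.6, pandas 2.3.3 and matplotlib 3.10.9, and the steps were tested on simulated data. The simulated noise followed the spread between duplicates, with no variation between pools. It therefore does not show how the steps perform on real differences between pools. The number of arrays limits the precision.

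Named besides the members are Lhx1, from each of 12 other lists the 2 genes with the highest signal and up to 4 that met the criteria with the largest ratios, not all of which are described, and the 8 nearest profiles. Srf was named for its role. Members and lists were chosen with earlier results of these data known. Some genes of these lists were not analysed here. Podocyte genes and kidney identity genes were also read: of 4 podocyte genes 0 were higher at E18.5 in mutant and 2 in control kidneys, and of 7 identity genes 1 was lower in mutant and 2 in control kidneys. Over all genes 0.896% were higher and 0.742% lower in mutant kidneys, and 3.57% and 1.21% in control kidneys. Promoter sequences are from RefSeq. Tried as alternatives were other minimum signals, geometric means, 50 units added, median scaling, quantile normalization, a ratio of 1.5, no duplicate criterion, other ways to read a gene, omission of probe sets that lay apart between the E18.5 mutant duplicates, and each array left out.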

Additional observations from a re-analysis of the deposited data

Results flagged for a closer look

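Smtn was flagged because the genotypes were apart in opposite directions at the 2 stages. The log2 ratio of mutant over control was -0.29 (-0.59 to -0.03) at E18.5, with both mutant arrays below both control arrays, and 0.38 (0.31 to 0.45) at E14.5, with both mutant arrays above both control arrays. This difference between stages was not tested, since each condition is 1 pool. The E18.5 mutant duplicates of Smtn were 1.38-fold apart, and 8.57% of all genes showed such an opposite separation.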

How the results depend on the processing

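The calls of Acta2, Myh11, Myl9 and Tagln as higher at E18.5 in both genotypes were kept under every alternative that made calls on single probe sets, and 0 members met the criteria in mutant over control kidneys under any of these. The mean log2 ratio over all probe sets of a gene gave values without calls, and by it Acta2 was under 2-fold in both genotypes, at 0.62 in mutant and 0.48 in control kidneys, and Myh11 stood at 1.10 in mutant and 0.94 in control kidneys. Other values moved. With 50 units added to each signal, the median log2 stage ratio of the members in control kidneys was 0.55, 0 members were lower there and Smtn was no longer higher. When probe sets 1.5-fold apart between the E18.5 mutant duplicates were omitted, Actg2 dropped out, the medians were 0.47 in mutant and 1.14 in control kidneys, and 0 members were lower in control kidneys. By that mean the control median was 0.31. The median difference of stage changes was 0.20 under quantile normalization and -0.011 with arrays scaled to the same median, so its sign is not settled. At a ratio of 1.5, 1 member, Smtn, was lower in the difference. With each array left out in turn, the median ranged over -0.043 to 0.14 for the difference (below 0 without E14.5 mutant array 2 or E14.5 control array 1), 0.29 to 0.42 for the mutant stage ratio, 0.60 to 0.69 for the control stage ratio, 0.027 to 0.15 for mutant over control at E18.5 and 0.02 to 0.14 at E14.5. Between 0 and 1 members were then lower at E18.5 in mutant kidneys. Over all genes, mutant kidneys had 163 higher and 135 lower at E18.5, against 172 and 113 under quantile normalization, 148 and 149 with median scaling and 538 and 703 at a ratio of 1.5. With 1 mismatch allowed, 3 member windows held a CArG box in place of 1.

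In limma, 1 probe set was higher and 12 lower when all 8 arrays were fitted with the pool as a random block and the array number as a replicate block, with 0 members. The array numbers pair nothing in the labels, and the differences between duplicates correlated with r between -0.45 and 0.42 over the 6 pairs of pools. With each array left out, 0 to 5 were higher and 0 to 118 lower, the highest counts without E18.5 mutant array 2. The cause was not tested. Signals under the minimum, as for Lmod1, for Myh11 at E14.5 and for part of the Actg2 arrays at E18.5, limit the ratios.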
